A study of Homo sapiens with 12 samples.

Results

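The genes described here are 10 transcriptional targets and feedback inhibitors of ERK signalling, DUSP1, DUSP4, DUSP5, DUSP6, SPRY2, SPRY4, SPRED1, SPRED2, ETV4 and ETV5, taken from the 20046 genes that carry a symbol on the array. They were chosen by name, with earlier results of these data known. The shares of all genes set beside their counts are therefore descriptions and not tests. Every probe assigned to one of these symbols was read, which gave 17 of 47323 probes. RNA came from HEK293T cells, a human embryonic kidney line, 48 h after transient transfection, and was hybridised to 12 Illumina bead arrays, 2 independently transfected replicates in each of 6 groups. The groups received plasmids for human GADD45a with human ING1b lacking its PHD domain (GADD45a+ING1bΔPHD), GADD45a with full-length ING1b (GADD45a+ING1b), GADD45a alone, ING1bΔPHD alone, ING1b alone, or an empty vector (Control). GADD45a is induced by stress and has been implicated in active removal of DNA methylation, and ING1b is a chromatin protein whose PHD finger recognises trimethylated histone H3. All groups passed through transfection, the signal is a mean over transfected and untransfected cells, and a change in fewer cells cannot be told apart from a smaller change in all of them.

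In the ERK pathway, growth factor receptors activate RAS and then the kinases RAF, MEK and ERK, and active ERK enters the nucleus and induces a set of short-lived messages. Several of these encode brakes on the same pathway. Sprouty and Spred proteins act upstream of ERK at the level of RAS and RAF, and the dual-specificity phosphatases remove phosphate from ERK or from its relatives JNK and p38. ETV4 and ETV5 are ETS-family transcription factors of the PEA3 group and carry the signal on to further genes. Together these messages are widely read as a gauge of ERK output, although DUSP1 also answers to stress kinases and to cyclic AMP.

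The depth and identity of the arrays were checked first. Between 14555 and 16301 probes were detected per array, at a detection p under 0.01, and the median signal was 129 to 140 intensity units. Of the HEK293T markers KRT18, VIM, NEFL, NEFM and INA were detected on 12 arrays, KRT8 on 11 and PAX2 on 0. PTPRC, CD3E, COL3A1, DCN, PECAM1, VWF, CDH5, APOA1 and TTR were detected on 0 arrays, whereas CD14, COL1A1, LUM and ALB were detected on 11, 9, 10 and 12 arrays. The GADD45A probe ILMN_1694075 went against the labels, with 128 to 160 intensity units on the arrays labelled with GADD45a, where it was detected on 0 of 6, against 744 to 1088 on the arrays labelled without it, where it was detected on 6 of 6. The second probe, ILMN_2052208, read 859 to 1127 units on the arrays labelled with GADD45a and 1152 to 1851 on those without. The detected ING1 probe read 207 to 266 units on the arrays labelled with an ING1b form and 177 to 241 on those without. Groups are therefore named by their labels, every direction below is that of arrays labelled with GADD45a against arrays labelled without it, and whether the 2 sets were exchanged as a whole was not tested.

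Of the 10 genes, 5 were detected on 12 arrays: the phosphatases DUSP1 and DUSP5, and the upstream inhibitors SPRY2, SPRED1 and SPRED2. ETV5 was detected on 5 arrays, at 1 of its 2 probes. DUSP4, DUSP6, SPRY4 and ETV4 were detected on 0 arrays and were not tested. Each class of the 10 genes, phosphatases, Sprouty and Spred genes, and ETS factors, thus kept at least 1 measured gene, 6 in all.

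DUSP6 encodes the cytoplasmic phosphatase that is specific for ERK, and 1 of its arrays came close to the detection threshold. Its probe ILMN_2396020 read 126 to 152 intensity units on the arrays labelled with GADD45a and 124 to 163 on those without, with a lowest detection p of 0.0104. Its second probe, ILMN_1677466, stayed between 87.5 and 113 units. DUSP4 encodes a nuclear phosphatase, and its probes lay between 91.0 and 130 units. The 4 probes of SPRY4, a Sprouty gene, lay between 97.4 and 145 units, and the 2 probes of ETV4 between 113 and 148. For all 11 undetected probes the ranges with and without GADD45a overlapped, the second ETV5 probe included, with 119 to 139 units on arrays labelled with GADD45a and 123 to 140 on those without. No difference between groups was tested for these probes. This leaves the level of DUSP4, DUSP6, SPRY4 and ETV4 unmeasured and does not show that they are silent.

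**Figure D1:**
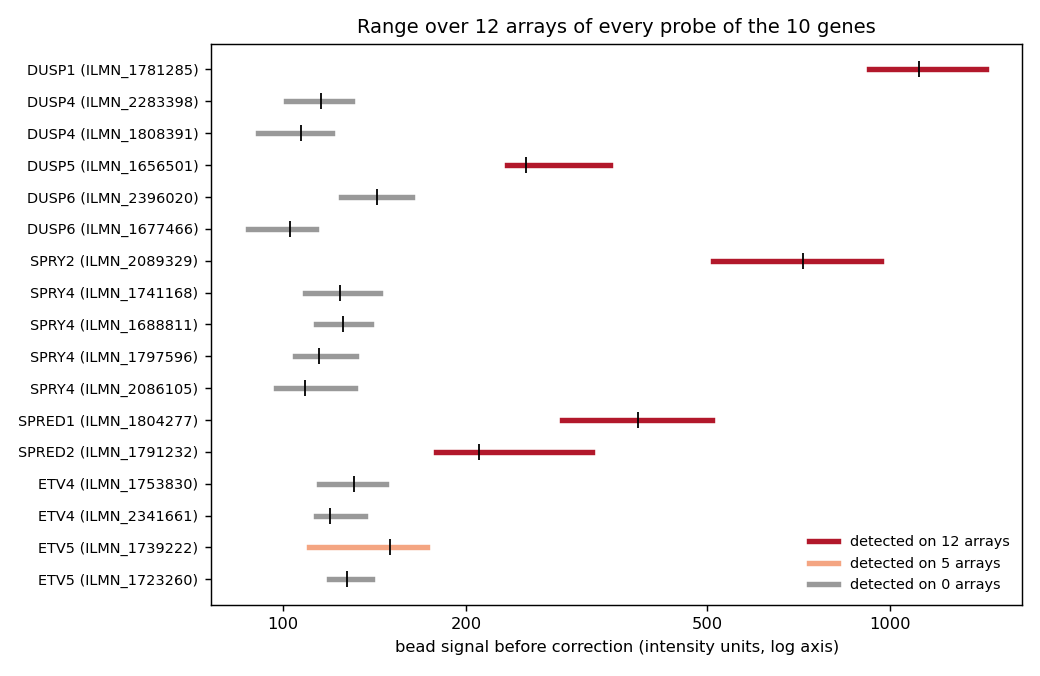
Range (bar) and median (tick) over 12 arrays of the bead signal before correction, in intensity units on a log axis, for each of the 17 probes of the 10 genes. The DUSP1 probe runs from 923 to 1437 units and the SPRY2 probe from 511 to 966, the ETV5 probe in light red was detected on 5 arrays, and the 11 grey probes detected on 0 arrays lie between 87.5 and 163 units.

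Of the measured genes, 3 were higher on the arrays labelled with GADD45a than on those without, taken over the 3 backgrounds of ING1bΔPHD, ING1b and empty vector. SPRED2, an inhibitor of RAS and RAF, was 1.68-fold higher (log2 difference 0.75, SE 0.139, limma adjusted p = 0.0243). DUSP1, the phosphatase of ERK, JNK and p38, was 1.39-fold higher (0.48, SE 0.106, limma adjusted p = 0.045). The ETS factor ETV5 was higher by at least 1.13-fold (limma adjusted p = 0.000275) and is left out of this count, for the reason given in the next paragraph. DUSP5, the nuclear ERK phosphatase, was 1.25-fold higher after normalisation (0.32, SE 0.103) and did not pass (limma adjusted p = 0.134), but it passed with the replicate number as a block (limma adjusted p = 0.0455). Before correction the direction of DUSP5 was not the same in each background. Its means with and without GADD45a were then 273 and 244 intensity units in empty vector. They were 289 and 314 in ING1b, and 241 and 241 in ING1bΔPHD. SPRY2 differed by 0.07 and SPRED1 by 0.19, and neither passed. No measured gene of the 10 was lower. The comparison sets 6 arrays against 6, and a gene is said to have risen or fallen where its adjusted p, by limma with Benjamini-Hochberg adjustment over 10645 genes, was under 0.05.

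ETV5 entered the test only because arrays labelled with GADD45a reached detection, so a gene like it had to differ, and its calls are left out of the counts unless stated. Counts out of 6 genes below include ETV5, which was not called in any of them. Of the 5 genes detected on 12 arrays, 2 were called, SPRED2 and DUSP1, where 2.71% of all genes were called in this comparison and 1.02% as higher. With the replicate block 3 of the 5 were called, where 8.88% of all genes were. The median difference over these 5 genes was 0.32, against -0.01 over all genes. Before correction the DUSP1 ranges overlapped, at 1011 to 1437 intensity units on arrays labelled with GADD45a and 923 to 1133 on those without. After normalisation every DUSP1 array labelled with GADD45a lay above every array without it, which 0.808% of all genes did in that direction. The ETV5 arrays were separated too, and this is not read against that share. The SPRED2 arrays overlapped. ETV5 passed in the 20 alternative analyses that tested it, and it was not tested where detection on 12 arrays was required. These repeats use the same arrays and add no independent support. The SPRED2 call ended when any of 7 arrays was left out (adjusted p up to 0.0711) and the DUSP1 call when any of 11 was left out (up to 0.116), all but GADD45a+ING1b replicate 2, while the differences stayed between 0.63 and 0.87 for SPRED2 and between 0.40 and 0.56 for DUSP1.

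ETV5 was read at probe ILMN_1739222, near the limit of detection. Before correction its signal was 172 and 169 intensity units on the GADD45a+ING1bΔPHD arrays, 172 and 152 on GADD45a+ING1b, 160 and 164 on GADD45a, 118 and 123 on ING1bΔPHD, 148 and 136 on ING1b, and 120 and 110 on Control. After normalisation, on the log2 scale, it was 6.19 and 6.14 with GADD45a+ING1bΔPHD, 6.21 and 5.84 with GADD45a+ING1b, 5.89 and 6.13 with GADD45a, 4.72 and 4.88 with ING1bΔPHD, 5.30 and 5.15 with ING1b, and 4.76 and 4.67 in Control. All 6 arrays labelled with GADD45a were above all 6 without it. The 5 arrays on which it was detected all carried GADD45a in their label, and only GADD45a+ING1b replicate 2 of that set was missed. This detection is what admitted ETV5 to the test, so it adds nothing to the difference in signal.

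Because ETV5 was below detection in every group labelled without GADD45a, its folds are lower bounds. They set the measured mean of the group with GADD45a against the group without it, each array of which was placed at the higher of its own value and its own detection floor, and the floors of the 12 arrays were 5.76 to 6.10. Against Control it was higher by at least 1.30-fold in GADD45a+ING1bΔPHD (group means 6.16 ± 0.03 and 4.71 ± 0.07, SD, n = 2 each, limma adjusted p = 0.00919). It was at least 1.18-fold higher in GADD45a+ING1b (6.02 ± 0.26, limma adjusted p = 0.00324) and at least 1.17-fold higher in GADD45a (6.01 ± 0.17, limma adjusted p = 0.00979). Among the 3 groups with GADD45a neighbouring means overlapped, and the widest difference, 0.15 between GADD45a+ING1bΔPHD and GADD45a, did not pass (limma adjusted p = 0.999). In the backgrounds without a shared control, GADD45a+ING1bΔPHD was at least 1.09-fold higher than ING1bΔPHD (limma adjusted p = 0.016), and GADD45a+ING1b was at least 1.14-fold higher than ING1b but did not pass (limma adjusted p = 0.121).

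The precision of the ETV5 values is that of 2 arrays a group. The calls of GADD45a and of GADD45a+ING1bΔPHD against Control ended without Control replicate 2 or without either array of the transfected group, with adjusted p of 0.0659 to 0.106 for GADD45a and 0.0769 to 0.0922 for GADD45a+ING1bΔPHD, and that of GADD45a+ING1b held in 20 of 20 alternatives. The call of GADD45a+ING1bΔPHD against ING1bΔPHD ended without any of its 4 arrays (adjusted p 0.167 to 0.213), without background correction (0.141), with an offset of 50 (0.113) and with a trended robust variance (0.152).

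SPRED2, a membrane-bound inhibitor that keeps RAF from being activated, showed its largest values in 2 groups. The normalised signal was 7.55 and 7.20 with GADD45a+ING1bΔPHD, 6.87 and 6.50 with GADD45a+ING1b, 7.88 and 7.15 with GADD45a, 6.56 and 6.40 with ING1bΔPHD, 6.48 and 6.32 with ING1b, and 6.54 and 6.36 in Control. GADD45a and GADD45a+ING1bΔPHD thus stood above the other groups with no overlap, and GADD45a+ING1b had 1 of its 2 arrays inside the range of the groups without GADD45a. Replicate 1 was the higher array in every group.

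Against Control, SPRED2 was 2.08-fold higher in GADD45a (log2 1.06, SE 0.242, limma adjusted p = 0.0883) and 1.90-fold higher in GADD45a+ING1bΔPHD (0.93, SE 0.242, limma adjusted p = 0.109). Neither passed, and both passed with the replicate number as a block (limma adjusted p = 0.0154 and 0.0207). In GADD45a+ING1b the difference was 0.23 (95% interval -0.30 to 0.77). GADD45a+ING1b was lower than GADD45a alone by a log2 difference of -0.83 (SE 0.242), which did not pass (limma adjusted p = 0.273) and passed with the block (limma adjusted p = 0.0454). The test of whether the GADD45a difference depended on ING1b gave -0.78 (SE 0.342, unadjusted p = 0.0462), which did not pass (limma adjusted p = 1), so the SPRED2 difference with GADD45a is not shown to differ between the ING1b and the empty vector background.

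The promoter window of SPRED2 is shown because it is one of the genes that rose, and the DUSP1 and SPRY2 windows are shown beside their values for comparison. The windows at hand, drawn from RefSeq (GRCh38.p14), covered 6 of the 10 genes and not ETV5, DUSP5, DUSP4 or ETV4. The window of the most upstream SPRED2 start runs over the 250 bases before it, at chr2:65432600-65432849 on the minus strand. Capitals mark matches on either strand to 5 motifs, the cyclic AMP response element TGACGTCA, its core TGACG, the ETS core CCGGAA, the AP-1 element TGANTCA and the TATA box TATAAA.
SPRED2: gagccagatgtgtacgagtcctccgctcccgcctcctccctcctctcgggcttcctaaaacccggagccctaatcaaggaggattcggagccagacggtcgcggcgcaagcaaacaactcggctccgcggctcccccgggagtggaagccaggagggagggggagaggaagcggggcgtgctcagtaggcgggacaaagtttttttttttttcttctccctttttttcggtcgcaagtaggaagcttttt
This window held 19 CpG dinucleotides, against a median of 11 over 35116 windows of the same length, and none of the 5 motifs. It contains a long run of T near the start. The window of the second SPRED2 start held 3 CpG and a TATAAA 31 bases before the start, and which start the probe reports on was not analysed here.

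DUSP1 encodes a nuclear phosphatase that acts on p38 and JNK as well as ERK and that is induced within minutes by growth factors and stress. Its normalised signal was 10.37 and 10.25 with GADD45a+ING1bΔPHD, 10.54 and 10.07 with GADD45a+ING1b, 10.30 and 10.00 with GADD45a, 9.85 and 9.68 with ING1bΔPHD, 9.81 and 9.88 with ING1b, and 9.78 and 9.64 in Control. The lowest array labelled with GADD45a was above the highest without it, and neighbouring groups within each set overlapped.

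DUSP1 was 1.51-fold higher than Control in GADD45a+ING1bΔPHD (log2 0.59, SE 0.184, limma adjusted p = 0.147), 1.5-fold higher in GADD45a+ING1b (0.59, limma adjusted p = 0.121) and 1.36-fold higher in GADD45a (0.44, limma adjusted p = 0.301). None of these passed without the block. With the replicate number as a block the first and second passed (limma adjusted p = 0.0426 and 0.0341) and the third did not (0.104). The ING1b forms alone differed from Control by 0.05 for ING1bΔPHD (95% interval -0.36 to 0.46) and 0.13 for ING1b (-0.28 to 0.54).

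The DUSP1 window, at chr5:172771196-172771445 on the minus strand of GRCh38.p14, carried more of the searched letters than the others.
DUSP1: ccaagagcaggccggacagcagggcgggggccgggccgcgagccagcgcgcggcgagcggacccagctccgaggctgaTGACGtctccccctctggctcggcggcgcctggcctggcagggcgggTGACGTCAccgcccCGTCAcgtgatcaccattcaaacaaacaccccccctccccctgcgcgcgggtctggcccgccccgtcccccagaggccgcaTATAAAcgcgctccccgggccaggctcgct
The full element TGACGTCA began 125 bases before the start, and 1.65% of all windows hold it. TGACG was matched 4 times, at 172, 125, 122 and 111 bases before the start, and the matches at 125 and 122 lie within the full element. TGACG occurs in 21.2% of windows. A TATAAA stood 30 bases before the start, as in 10.7% of windows at any position, CCGGAA and TGANTCA were not in the window, and it held 30 CpG dinucleotides. These matches are descriptions of the sequence, and no binding was measured.

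DUSP5 encodes a nuclear phosphatase that acts on ERK and not on its relatives. Its normalised signal was 7.18 and 7.22 with GADD45a+ING1bΔPHD, 7.90 and 7.57 with GADD45a+ING1b, 7.70 and 7.40 with GADD45a, 6.97 and 7.04 with ING1bΔPHD, 7.70 and 7.35 with ING1b, and 7.01 and 6.95 in Control. Here the groups did not sort by GADD45a alone. GADD45a+ING1b, GADD45a and ING1b overlapped one another and lay above the other 3 groups, GADD45a+ING1bΔPHD came next, and ING1bΔPHD overlapped Control.

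Against Control, DUSP5 was 1.69-fold higher in GADD45a+ING1b (log2 0.75, SE 0.178), which did not pass (limma adjusted p = 0.0559) and passed with the block (limma adjusted p = 0.019). It was 1.48-fold higher in GADD45a (0.57, limma adjusted p = 0.176) and 1.46-fold higher in ING1b (0.54, limma adjusted p = 0.367), and neither passed with or without the block. The difference was 0.22 in GADD45a+ING1bΔPHD and 0.03 in ING1bΔPHD (95% interval -0.37 to 0.42).

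SPRY2 encodes a Sprouty protein that restrains signalling from growth factor receptors to RAS. Its normalised signal was 9.49 and 9.39 with GADD45a+ING1bΔPHD, 8.84 and 9.04 with GADD45a+ING1b, 9.56 and 9.34 with GADD45a, 9.22 and 9.19 with ING1bΔPHD, 8.99 and 8.81 with ING1b, and 9.45 and 9.61 in Control. The arrays with full-length ING1b were the lowest 4, ING1bΔPHD came next, and the remaining 3 groups overlapped at the top.

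SPRY2 differed from Control by -0.59 (SE 0.152, limma adjusted p = 0.0712) in GADD45a+ING1b and by -0.63 (limma adjusted p = 0.19) in ING1b, and neither passed. With the replicate number as a block it fell in GADD45a+ING1b (limma adjusted p = 0.0328) and not in ING1b (0.0877). In ING1bΔPHD the difference was -0.33 (95% interval -0.67 to 0.01). In GADD45a+ING1bΔPHD and GADD45a it was -0.09 and -0.08, with intervals from -0.43 to 0.24 and from -0.42 to 0.26. SPRY2 was the single measured gene of the 10 whose direction against Control was downward in each of the 5 groups, and these 5 differences share the Control arrays.

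The SPRY2 window of the most upstream start, at chr13:80341127-80341376 on the minus strand of GRCh38.p14, held 23 CpG dinucleotides.
SPRY2: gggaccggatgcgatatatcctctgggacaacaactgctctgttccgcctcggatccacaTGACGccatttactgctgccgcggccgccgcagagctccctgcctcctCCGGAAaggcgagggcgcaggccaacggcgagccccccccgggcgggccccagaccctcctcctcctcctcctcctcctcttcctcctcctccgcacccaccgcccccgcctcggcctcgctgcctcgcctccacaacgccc
A TGACG began 190 bases and the ETS core CCGGAA 142 bases before the start, and CCGGAA occurs in 14.5% of all windows. TGACGTCA, TGANTCA and TATAAA were not in this window, and TGANTCA occurs in 6.57% of windows.

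SPRED1, the Spred gene whose loss causes Legius syndrome and whose protein brings neurofibromin to RAS at the membrane, did not pass in any of the 15 comparisons. Its normalised signal was 8.51 and 8.24 with GADD45a+ING1bΔPHD, 8.13 and 7.80 with GADD45a+ING1b, 8.45 and 8.28 with GADD45a, 8.15 and 7.76 with ING1bΔPHD, 7.99 and 7.98 with ING1b, and 8.44 and 7.96 in Control. The 2 Control arrays were further apart than the group means, which lay between 7.95 and 8.38, and the arrays of every group against Control overlapped. The arrays did not overlap in GADD45a+ING1bΔPHD against ING1bΔPHD, with a difference of 0.42, in GADD45a+ING1bΔPHD against GADD45a+ING1b, with 0.41, or in GADD45a+ING1b against GADD45a, with -0.39 (SE 0.211, limma adjusted p = 0.788, 0.599 and 0.623). Each of these comparisons sets 2 arrays against 2, and the share of all genes without overlap is not given. Nothing is therefore read from the separation. Against Control the differences ran from -0.25 in ING1bΔPHD to 0.17 in GADD45a+ING1bΔPHD. The response of the Spred genes was thus uneven as measured, SPRED2 having passed over 6 arrays against 6 and SPRED1 not, although the difference between the 2 genes was not tested.

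**Figure D2:**
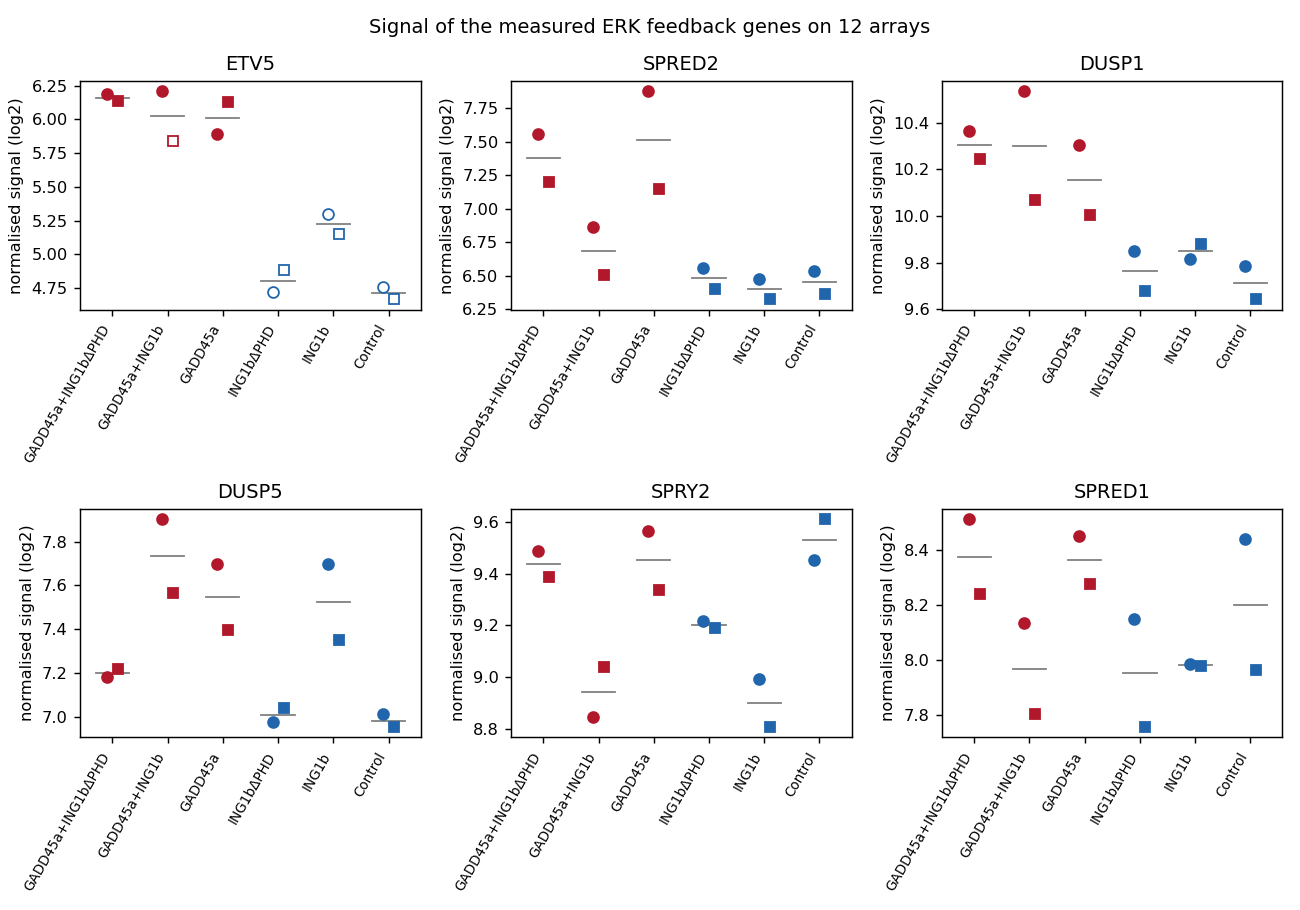
Normalised signal on the log2 scale of the 6 measured genes on each of 12 arrays, by group, with circles for replicate 1, squares for replicate 2, open symbols for arrays on which the probe was not detected, and bars for group means. Arrays labelled with GADD45a are red and stand above all blue arrays for ETV5 and DUSP1, whereas SPRY2 is lowest in the groups with full-length ING1b, 8.81 to 9.04.

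Set against Control group by group, 0 of the 5 genes detected on 12 arrays passed in any group by limma. At an unadjusted p under 0.05 limma called 2 of the 5 in GADD45a+ING1bΔPHD, 3 in GADD45a+ING1b and 3 in GADD45a. The share of all genes at that threshold is not given for these groups, and nothing is read from these 3 counts. The shares below are for adjusted p. In GADD45a+ING1bΔPHD 2 of the 5, DUSP1 and SPRED2, were called with the block, where 6.06% of all genes were called with it, 0.517% without it and 0.225% as higher. In GADD45a+ING1b 3 of the 5, DUSP1, DUSP5 and SPRY2, were called with the block, where 9.26% of all genes were called with it, 2.69% without it and 1.58% as higher. In GADD45a 1 of the 5, SPRED2, was called with the block, where 3.67% of all genes were called with it, 0.658% without it and 0.188% as higher. The single call without the block in each of these groups was ETV5, and nothing is read from its count against these shares. These comparisons share the Control arrays, so their calls are not independent of each other.

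No measured gene of the 10 passed with a form of ING1b alone. In ING1bΔPHD limma called 0 of 5 with and without the block, and 0% of all genes, or 0.0282% with the block, and at an unadjusted p under 0.05 it called 0 of 5 against 11.1% of all genes. In ING1b limma called 0 of 5 with and without the block, where 0.432% and 0.798% of all genes were called, and 2 of 5 at an unadjusted p under 0.05, SPRY2 with a negative difference and DUSP5 with a positive one, against 10% of all genes. ETV5 was below detection in these groups and in Control, and no difference is given for it. The medians over the 5 genes were 0.22 in GADD45a+ING1bΔPHD, 0.23 in GADD45a+ING1b, 0.44 in GADD45a, 0.03 in ING1bΔPHD and -0.05 in ING1b, and those over all genes lay between -0.03 and 0.00.

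**Figure D3:**
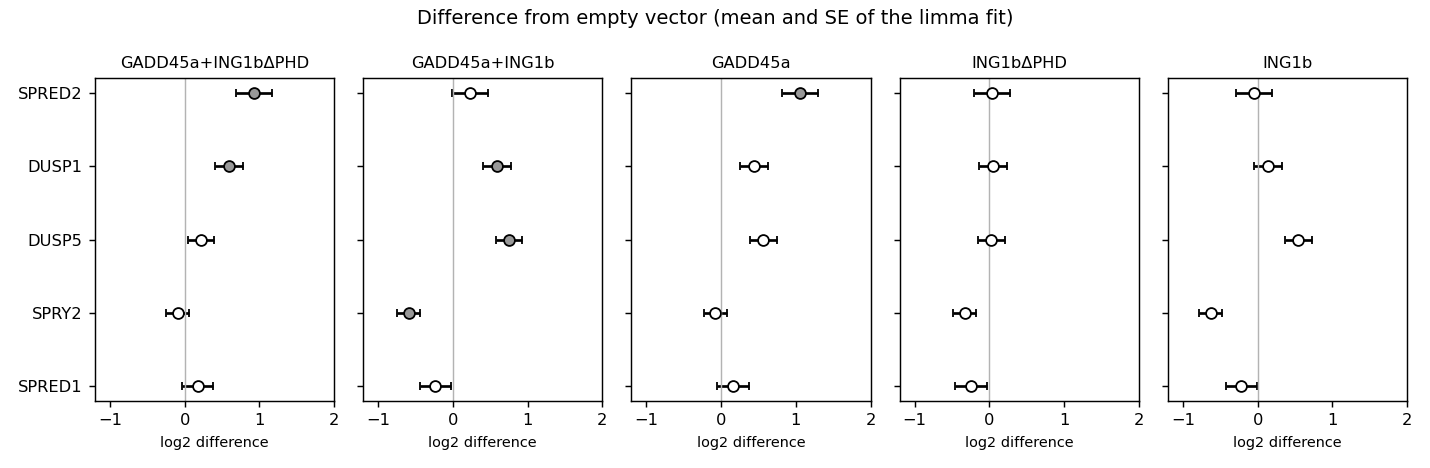
Log2 difference from Control of the 5 genes detected on 12 arrays in each transfected group, with the SE of the limma fit over 12 arrays as bars. Grey points passed with the replicate number as a block and not without it, and white points did neither. The grey points are SPRED2 and DUSP1 in GADD45a+ING1bΔPHD, DUSP1, DUSP5 and SPRY2 in GADD45a+ING1b and SPRED2 in GADD45a, and no point is grey in ING1bΔPHD or ING1b.

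Adding GADD45a to a form of ING1b asked the same question in backgrounds that share no arrays with GADD45a against Control. GADD45a+ING1bΔPHD against ING1bΔPHD called 0 of the 5 genes detected on 12 arrays by limma, with and without the block, and 2 of 5, DUSP1 and SPRED2, at an unadjusted p under 0.05. By adjusted p 0.0939% of all genes were called there, 0.0282% as higher, and 0.16% with the block, and the ETV5 call given above is not read against them. The share at an unadjusted p under 0.05 is not given for this comparison, and nothing is read from the count of DUSP1 and SPRED2. GADD45a+ING1b against ING1b called 0 of 5 by limma, with and without the block, where 0.357% and 0.601% of all genes were called, and 1 of 5, DUSP1, at an unadjusted p under 0.05, where 6.62% were. After normalisation the direction was the same in the 6 pairs of arrays that share a replicate number for SPRED2, DUSP1 and DUSP5. The share of all genes that do so is not given. Before correction the ING1b pair of replicate 2 was lower with GADD45a, at 178 against 191 units for SPRED2, 1012 against 1102 for DUSP1 and 260 against 282 for DUSP5. For DUSP5 the replicate 1 pairs in ING1b (318 against 346) and ING1bΔPHD (239 against 243) were lower too. Averaged over the backgrounds, replicate 1 and replicate 2 gave 0.91 and 0.59 for SPRED2, 0.59 and 0.37 for DUSP1, and 0.37 and 0.28 for DUSP5. SPRY2, with 0.08 and 0.05, and SPRED1, with 0.17 and 0.21, had pairs of either sign.

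**Figure D4:**
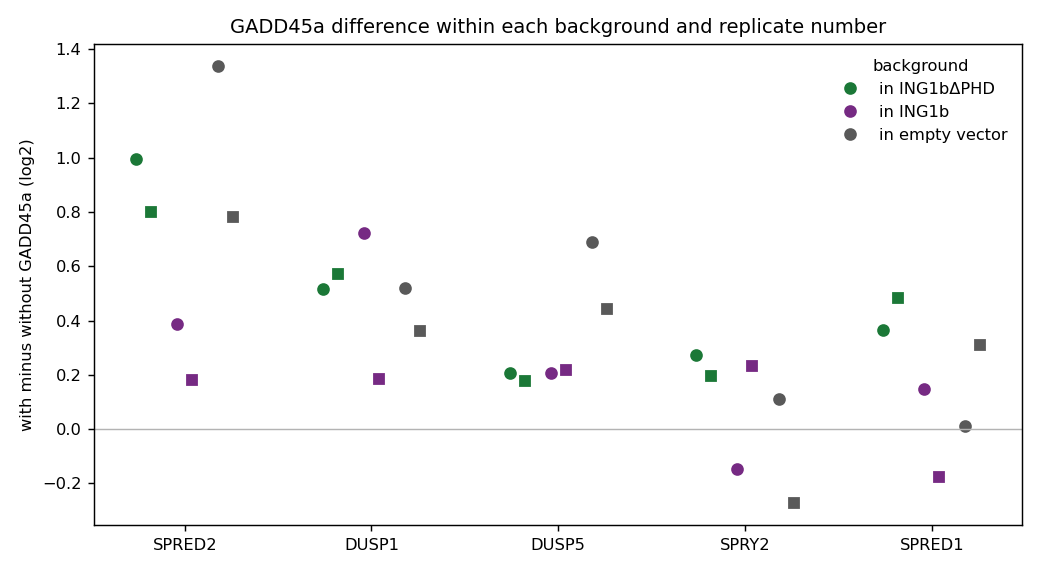
Log2 difference of arrays labelled with GADD45a minus those without it, for pairs of arrays that share a replicate number, in the ING1bΔPHD, ING1b and empty vector backgrounds, for the 5 genes detected on 12 arrays, with circles for replicate 1 and squares for replicate 2. The values are after normalisation. All 6 points are above 0 for SPRED2, DUSP1 and DUSP5, and the SPRED2 points are lowest in the ING1b background, at 0.39 and 0.18.

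Whether the GADD45a difference depended on the background was tested directly. With full-length ING1b, limma called 0 of 6 genes and 0% of all genes, 1 of 6 at an unadjusted p under 0.05 (SPRED2, above) against 4.15% of all genes, and with the block 0 of 6, where 0.0188% of all genes were called. With ING1bΔPHD it called 0 of 6 with and without the block, 0% of all genes in each, and 0 of 6 at an unadjusted p under 0.05 against 4.56%. For ETV5 no size is given, since the probe was not detected in the groups without GADD45a. For DUSP1 the intervals ran from -0.57 to 0.59 with ING1b and from -0.48 to 0.68 with ING1bΔPHD, wider than the DUSP1 difference itself.

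Adding a form of ING1b to GADD45a gave few calls. GADD45a+ING1b against GADD45a called 0 of 6 by limma, where 0.592% of all genes were called, 2 at an unadjusted p under 0.05 (SPRED2 and SPRY2, both with negative differences) against 9.38%, and with the block 1, SPRED2, where 1.12% were called. For SPRY2 this difference was -0.51 (SE 0.152, limma adjusted p = 0.279). GADD45a+ING1bΔPHD against GADD45a called 0 of 6 with and without the block and 0% of all genes in each, with 0 of 6 at an unadjusted p under 0.05 against 5.3%. The largest of these differences was -0.35 for DUSP5 (95% interval -0.75 to 0.05).

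The PHD domain was examined by setting the groups with ING1bΔPHD against those with full-length ING1b, with GADD45a balanced, 4 arrays against 4. DUSP5 was lower without the PHD domain, at 0.695-fold (log2 -0.53, SE 0.126), which did not pass (limma adjusted p = 0.0823) and passed with the block (limma adjusted p = 0.0265). SPRY2 was higher without it, at 1.32-fold (0.40, SE 0.108), and did not pass (limma adjusted p = 0.118, with the block 0.0548). For DUSP5 and SPRY2 the 2 sets of arrays did not overlap, which was so for 8.15% of all genes. SPRED2 differed by 0.39 (limma adjusted p = 0.362).

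The PHD comparison called 0 of 6 genes by limma against 1.45% of all genes, with 3 of 6 at an unadjusted p under 0.05 against 13.4%, and 1 of 6 with the block against 4.38%. Without GADD45a, ING1bΔPHD against ING1b gave -0.52 for DUSP5 (SE 0.178, limma adjusted p = 0.442) and 0.30 for SPRY2 (SE 0.152, limma adjusted p = 0.701). With GADD45a, GADD45a+ING1bΔPHD against GADD45a+ING1b gave -0.54 for DUSP5 (limma adjusted p = 0.336), 0.50 for SPRY2 (limma adjusted p = 0.278) and 0.69 for SPRED2 (limma adjusted p = 0.363). The DUSP5 differences were close in size in these 2 comparisons, which share no arrays, and each sat with a count of 0 of 6 called by limma, with and without the block, where 0.507% and 0.498% of all genes were called, or 1.13% and 1.19% with the block. At an unadjusted p under 0.05 the counts over the 5 genes detected on 12 arrays were 1 and 3, against 7.68% and 9.33% of all genes.

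The rest of the pathway was read from 5 lists that hold none of the 10 genes and that were also chosen with earlier results of these data known. The shares of all genes called, to be read beside each count, were 0.517% in GADD45a+ING1bΔPHD, 2.69% in GADD45a+ING1b, 0.658% in GADD45a, 0% in ING1bΔPHD and 0.432% in ING1b against Control, 2.71% over 6 arrays against 6 and 1.45% over 4 against 4. With the block they were 6.06%, 9.26%, 3.67%, 0.0282%, 0.798%, 8.88% and 4.38% in the same order. The ERK cascade itself, from receptors to ribosomal S6 kinases, had 17 of 31 genes measured, and 0 of 17 passed against Control in any of the 5 groups by limma. Its median difference over 6 arrays against 6 was -0.03, against -0.01 over all genes. The ERK substrate kinase RPS6KA2 differed from Control by -1.0 in GADD45a and by -0.89 in GADD45a+ING1b (limma adjusted p = 0.147 and 0.123, with the block 0.0479 and 0.0428), and the adaptor SHC1 differed by 0.61 in GADD45a+ING1b (limma adjusted p = 0.069, with the block 0.0294). Of the cascade genes SHC1 alone passed in the PHD comparison, with a log2 difference of -0.54 (SE 0.11, limma adjusted p = 0.044). That call ended under median scaling, in the authors' values, without the detection filter, with probes tested singly and when any of 11 arrays was left out, all but ING1bΔPHD replicate 2 (adjusted p up to 0.164). With the block 3 of 17 passed over 6 arrays against 6, where 8.88% of all genes did, RPS6KA3 higher by 0.31 and RPS6KA2 and FGFR4 lower, by -0.61 and -0.65 (limma adjusted p = 0.0488, 0.0248 and 0.018), and 0 without it.

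Among 8 measured of 9 other MAP kinase phosphatases, 0 passed against Control in any group by limma. DUSP8, a phosphatase of JNK and p38, came nearest, did not pass in the groups with GADD45a and passed there with the block, with 1.02 in GADD45a+ING1bΔPHD, 1.46 in GADD45a+ING1b and 1.08 in GADD45a (SE 0.399, limma adjusted p = 0.231, 0.0832 and 0.246, with the block 0.0258, 0.00393 and 0.0234). In GADD45a+ING1b it also passed without background correction and with a trended robust variance. DUSP16, another JNK phosphatase, rose by 0.55 over 6 arrays against 6 (SE 0.1, limma adjusted p = 0.0223), 1 of 8 where 2.71% of all genes were called, whereas DUSP8, with 0.99 there, did not pass (limma adjusted p = 0.0546, with the block 0.00182). The DUSP16 call ended without any of Control replicate 2, GADD45a replicate 1, ING1b replicate 2, GADD45a+ING1b replicate 2, either ING1bΔPHD array or GADD45a+ING1bΔPHD replicate 1 (adjusted p up to 0.0656), and DUSP16 differed from Control by -0.67 in ING1b (limma adjusted p = 0.221). The median over the 8 phosphatases was 0.06, against -0.01 over all genes. Among 9 measured of 13 other Sprouty, Spred and ETS genes, 0 passed against Control by limma. The ETS gene ELK4 differed from it by 1.11 in GADD45a+ING1bΔPHD and 1.01 in GADD45a (limma adjusted p = 0.0714 and 0.0908, with the block 0.0306 and 0.0448). ELK4 was the single member of that list called over 6 arrays against 6, by 0.63 (SE 0.136, limma adjusted p = 0.0408), 1 of 9 where 2.71% of all genes were. That call ended in the authors' values, without the detection filter and when any of 10 arrays was left out, all but the 2 of Control (adjusted p up to 0.105). ELK4 was detected on 11 arrays, and the median over the 9 genes was 0.07. CIC, a repressor that ERK inactivates, differed from Control by 0.62 in GADD45a+ING1b and passed with the block (limma adjusted p = 0.0734, with the block 0.0209).

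Of 14 measured of 15 other genes known as ERK outputs, TNFRSF12A and HBEGF passed against Control. TNFRSF12A encodes the TWEAK receptor and rose by 1.70 in GADD45a+ING1bΔPHD, 1.27 in GADD45a+ING1b and 1.81 in GADD45a (SE 0.206, limma adjusted p = 0.0112, 0.0132 and 0.00574). Each of these 3 calls ended without Control replicate 2 or without either array of its own transfected group (adjusted p up to 0.103, 0.115 and 0.0659). HBEGF, a ligand of the EGF receptor, rose by 1.67 in GADD45a+ING1b and 1.19 in ING1b (SE 0.178, limma adjusted p = 0.00112 and 0.02), and the second call ended without Control replicate 2 or either ING1b array (adjusted p up to 0.217). Over 6 arrays against 6 both rose, TNFRSF12A by 1.10 and HBEGF by 0.47 (limma adjusted p = 0.00134 and 0.0426), 2 of 14 where 2.71% of all genes were called, and 0 of the 14 fell. TNFRSF12A passed there in 21 of 21 alternatives. HBEGF passed in 7 of 21, its call ending under median scaling, in the authors' values, without the detection filter, with probes tested singly and when any of 10 arrays was left out, all but replicate 1 of Control and of GADD45a (adjusted p up to 0.116). The median over the 14 was 0.09, against -0.01 over all genes. HBEGF fell with ING1bΔPHD in place of ING1b over 4 arrays against 4, with a log2 difference of -0.69 (SE 0.126, limma adjusted p = 0.0283), a call that ended without any 1 of those 8 arrays (adjusted p up to 0.119). With the block HBEGF and the receptor gene EPHA2 also rose in GADD45a+ING1bΔPHD, by 0.88 and 1.06 (limma adjusted p = 0.0285 and 0.0306), and EPHA4 fell in GADD45a, with -0.66 (0.0232). Over 6 arrays against 6 EPHA4 and IER3 then fell too, with -0.28 and -0.34 (limma adjusted p = 0.0345 and 0.0283).

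Of 8 measured of 11 immediate-early genes, which answer first to growth factors and stress, 3 passed against Control. EGR1 rose by 3.28 in GADD45a+ING1b and 1.95 in ING1b (SE 0.247, limma adjusted p = 0.000181 and 0.00687). FOSB rose by 2.87 in GADD45a+ING1b and 1.75 in ING1b (SE 0.238, limma adjusted p = 0.000238 and 0.0105), with 1 of the 2 Control arrays below detection, so its sizes rest in part on signal below the floor. The calls of both genes in ING1b ended without ING1b replicate 1, that of EGR1 also without Control replicate 2 (adjusted p up to 0.096), and that of FOSB also without ING1b replicate 2 and in the authors' values (up to 0.12). JUN rose by 0.95 in GADD45a (SE 0.175, limma adjusted p = 0.0446), a call that ended in 12 of 21 alternatives, the authors' values, no detection filter and leaving out any of 10 arrays, all but the 2 of ING1bΔPHD (adjusted p up to 0.223). With the block it rose also in GADD45a+ING1bΔPHD, by 0.83, and in GADD45a+ING1b, by 0.52 (limma adjusted p = 0.0207 and 0.0466). With ING1bΔPHD in place of ING1b, over 4 arrays against 4, EGR1 differed by -2.33 and FOSB, detected on 2 of the 4 arrays with ING1bΔPHD, by -2.09, and FOS was at least 1.68-fold lower (limma adjusted p = 0.000129, 0.000161 and 0.0124), 3 of 8 where 1.45% of all genes were called. The FOS call ended in the authors' values and without replicate 1 of ING1b, GADD45a+ING1b or GADD45a+ING1bΔPHD (adjusted p up to 0.0669). The immediate-early genes with the largest values thus followed full-length ING1b, while over 6 arrays against 6 JUN and ATF3 rose, by 0.69 and 0.75 (limma adjusted p = 0.00719 and 0.0282), 2 of 8 where 2.71% of all genes were called, and 0 of 8 fell. JUN passed there in 21 of 21 alternatives, and the ATF3 call ended when any of 9 arrays was left out, all but the 2 of Control and ING1bΔPHD replicate 2 (adjusted p up to 0.0813). The median over the 8 was 0.33, against -0.01 over all genes. RPS6KA3, FGFR4, EPHA2, EPHA4, IER3, FOS and ATF3 are outside the rule for named genes and were named after their values were seen.

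The genes whose pattern over the 12 arrays was most like the mean of the 5 members detected on all of them were MMS22L, HELZ2, RSRC2, DENND5A and CCNL1, with Pearson correlations of 0.92, 0.91, 0.91, 0.91 and 0.91 among 8486 genes compared. The nearest to single members were ABCB1 (0.93) and DUSP8 (0.92) for DUSP1, MPHOSPH9 (0.93) and SP2 (0.90) for DUSP5, MAPKAPK5 (0.91) and POLR3C (0.91) for SPRY2, BRIX1 (0.91) and CEBPZ (0.89) for SPRED1, and BTG3 (0.95) and DENND5A (0.94) for SPRED2. These are the highest of many correlations over arrays that share groups and replicate numbers, and they are given as a description.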

How the data were processed

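Per the labels' protocols, biotinylated cRNA was made from total RNA for Illumina arrays. The deposited scanner table gives a bead intensity per probe and array, not normalised between arrays, and a detection p-value, whose steps point to 770 negative control beads. A further deposited intensity table is, by its values, background-subtracted and quantile-normalised. GenomeStudio 2011.1 is named in the submitters' processing notes, without its settings. There were 0 columns of other samples. The scanner intensities were background-corrected with nec of limma 3.58.1 (R 4.3.3), raised by an offset of 16, quantile-normalised and taken to log2.

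Probes with detection p under 0.01 on at least 2 arrays were kept, 17814 of 47323, and of all probes 30113 had 1 symbol, 8 several and 17202 none. Each gene was read at its brightest detected probe, giving 10645 genes. Limma fitted 1 mean per group to 12 arrays, with Benjamini-Hochberg adjustment in each of 15 comparisons at an adjusted p of 0.05. Replicate deviations of same-numbered arrays correlated at 0.246 to 0.477 over 15 pairs of groups, all above 0.1, so replicate numbers were taken as pairs and blocked values are given where they change a call. Arrays of the same group correlated at 0.980 to 0.987 across genes. The procedure was tested on simulated data. The members and lists were chosen with earlier results of these data known. All members were named, and from each list the genes that passed against Control, or else up to 2 of smallest p. Alternative settings were an offset of 50, no background correction, median scaling, the authors' values, no detection filter, detection on 12 arrays, probes tested singly, trended robust variance, the replicate block and leaving out each array. The number of arrays limits the precision.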

Additional observations from a re-analysis of the deposited data

How the results depend on the processing

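Of 1875 member differences recomputed under 21 alternatives, 1825 kept their side of the threshold, 35 lost a call, 15 gained one, and none of the called ones changed sign. With the replicate number as a block, the calls among the 5 genes detected on 12 arrays were 1 in GADD45a, 3 in GADD45a+ING1b and 2 in GADD45a+ING1bΔPHD against Control. The shares of all genes called there were 3.67%, 9.26% and 6.06%, and ETV5, called in each, is not counted. The block also called 1 in GADD45a+ING1b against GADD45a and 1 in the PHD comparison of 4 arrays against 4, where 1.12% and 4.38% of all genes were called. It left the calls of the other comparisons of pairs of groups as they were. Without background correction, with an offset of 50, with median scaling and with a trended robust variance, GADD45a+ING1b against Control called a member beside ETV5. It was DUSP5 at the offset of 50 and SPRY2 otherwise. In the same order 444, 390, 1517 and 403 of 10645 genes were called. GADD45a+ING1b against ING1b called only ETV5 in the authors' values, where 34 of 10645 genes were called. GADD45a+ING1bΔPHD against ING1bΔPHD called 0 without background correction, with the offset of 50 and with the robust variance, where 8 of 10645 genes were called in each. The counts for leaving out each array, at the end of this paragraph, include ETV5 and stand without shares, so nothing is read from them. Where detection on all 12 arrays was required, ETV5 was not tested, and GADD45a and GADD45a+ING1bΔPHD against Control and GADD45a+ING1bΔPHD against ING1bΔPHD called 0, where 71, 111 and 7 of 8497 genes were called. Leaving out each array gave 0 to 1 for these 3 comparisons, 1 to 1 for GADD45a+ING1b against Control, 1 to 3 for the 6 arrays with GADD45a against the 6 without, and 0 to 0 for the others.

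Median scaling moved the median of all genes to -0.19 over 6 arrays against 6 and to -0.30 in GADD45a+ING1b against Control. DUSP1 was then 0.29 above arrays without GADD45a (adjusted p = 0.105), and its call was also lost in the authors' values (0.0636), without the detection filter (0.0674) and with probes tested singly (0.0542). The ETV5 difference over 6 arrays against 6 ran from 0.47 to 1.81 over the alternatives, since its level without GADD45a lies below detection and depends on the background correction. For SPRED2 the difference over 6 arrays against 6 ran from 0.40 to 0.87 over the alternatives, and it was called in 14 of 21. No slide is given in the files, so a slide block was not run. Signal over background limits ETV5 and the 4 genes detected on 0 arrays.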
